A study of Homo sapiens with 6 samples.

Results

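The genes described here build and regulate the clathrin coat, form caveolae and mark the endosomes that receive internalised cargo. The list named 45 genes, and 43 of them were measured among 19775 genes in all. A gene was represented by the brightest of the probe sets annotated with its symbol alone, by the mean over the 6 arrays. EPN2, whose probe sets carry a further symbol, and REPS1 were not analysed here. The genes were listed by function, and the rule uses no measured difference, although the list was drawn up with earlier results of these data known.

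Cells of HCT116, an established human colon carcinoma line, were given either precursor molecules of miR-224 or control oligos, each at 50 nM, and were harvested for total RNA 24 h later. Of the 6 arrays, 3 hold miR-224 cells and 3 control cells, paired by 3 experiments that the series calls independent. All values are expression levels read on a log2 scale. The number of arrays limits the precision. A level under 4.75, the median over all genes, is called dim below, and 41 of the 43 genes had a mean at or above it.

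Clathrin-mediated endocytosis begins when the adaptor complex AP-2 gathers receptors at the plasma membrane and recruits clathrin, whose heavy and light chains assemble into a cage. Scaffold proteins start and enlarge the pit, dynamin cuts its neck, and kinases and lipid phosphatases then help to strip the coat. The vesicle fuses with early endosomes that carry RAB5, from which cargo returns to the surface through RAB11 or moves on to RAB7 compartments. Caveolae are a separate, cholesterol-rich type of invagination built on caveolins.

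The transfected molecule is a precursor of miR-224, a microRNA that pairs with messenger RNAs mainly through its seed. Its annotated mature sequences are shown for reference, with the seed (bases 2 to 8 of the annotated sequence) in capitals. Whether the transfected molecule has the same ends was not checked. They are taken from RefSeq (GRCh38.p14), where the miR-224-5p arm lies at chrX:151958628-151958652 and the miR-224-3p arm at chrX:151958584-151958606, both on the minus strand. The labels do not say which arm the precursor delivers.
hsa-miR-224-5p: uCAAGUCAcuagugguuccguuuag
hsa-miR-224-3p: aAAAUGGUgcccuagugacuaca
The 5p seed CAAGUCA and the 3p seed AAAUGGU differ. Matches to either seed in the endocytosis transcripts were not searched here.

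Experiment 1 stood apart from the others in both arms. The actin control probe set at the 5′ end of the transcript averaged 4.28 on the arrays of experiment 1 and 12.4 on those of experiments 2 and 3, while its 3′ counterpart averaged 12.5 in both. For the genes whose arrays are all given below, the difference is therefore also given without experiment 1. The colon epithelial markers EPCAM, KRT18 and KRT19 averaged 10.4, 12.3 and 11.3. VIL1 was dim at 3.95, and 0 of 3 white blood cell markers and 0 of 3 endothelial markers reached 4.75. Of 5 fibroblast markers, COL1A1 did, at 5.96. The summed level of the fibroblast markers was 6.70 to 6.80 in miR-224 cells and 6.73 to 6.86 in control cells.

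The comparison asks which endocytosis transcripts differ between cells with added miR-224 and control cells. NECAP1, which encodes a clathrin-associated protein that binds AP-2, had the largest difference, at 38.2% of the control level on average. The clathrin light chain gene CLTB and the lipid phosphatase gene SYNJ1 were next, at 74.3% and 75.2%. On the probe set used for each, the other 40 genes differed by less than 0.25 on the log2 scale in either direction. They make up 93.0% of the 43, beside 87.0% of all genes that differed by less than 0.25. The 43 genes had a median difference of -0.05 (miR-224 minus control), beside 0.01 over all genes. Over the genes at or above the median level it was -0.0094. Of the 43 genes 25 were lower (58.1%), beside 46.8% of all genes.

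No endocytosis gene passed the test with experiment as a block (limma, Benjamini-Hochberg adjusted p under 0.05), and 0% of all genes did. At an unadjusted p under 0.05 there were 3 endocytosis genes, all lower, namely NECAP1, SYNJ1 and CLTB. Over all genes 5.52% were lower at that level and 5.45% higher, or 11% in either direction. The share of 3 in 43 (6.98%) lies between the lower and the either-direction shares and is not read as an excess. In the limma fit of genes at or above the median level alone, 1227 of 9888 had such a p in either direction. Of the 43 genes, 41 are at that level. In experiments 2 and 3 alone, NECAP1 passed and the other 42 did not, where the same fit called 0.88% of all genes and 0.743% as lower. When the fit over all 6 arrays used an intensity trend and robust variances, NECAP1 was again the 1 member called, where 0.283% of all genes passed and 0.207% were lower. With array weights 0 of the 43 passed, beside 0.0202% of all genes.

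**Figure D1:**
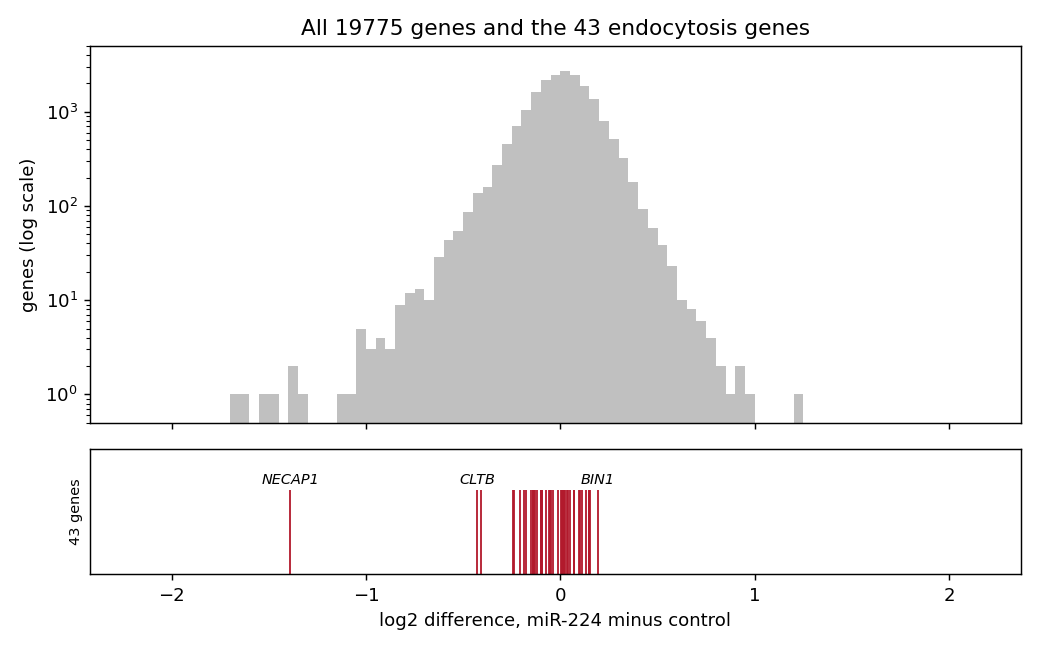
The upper panel counts all 19775 genes (log scale) by their log2 difference, miR-224 minus control, and the lower panel marks the 43 endocytosis genes as lines. NECAP1 lies at -1.39, far from the other 42, which lie between -0.43 (CLTB) and 0.19 (BIN1).

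NECAP1 and NECAP2 encode related proteins that bind adaptor complexes. NECAP1 works with AP-2 at the plasma membrane, and NECAP2 is known for a role with AP-1 in recycling from early endosomes. NECAP1 had levels of 6.83, 4.84 and 4.95 in miR-224 cells of experiments 1, 2 and 3, against 7.53, 6.74 and 6.53 in control cells. It was lower with miR-224 within every experiment, but the groups overlap, because miR-224 cells of experiment 1 lay above the control cells of experiments 2 and 3. In experiments 2 and 3 the miR-224 level was close to the median of all genes.

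The NECAP1 difference was -0.70, -1.89 and -1.57 in experiments 1, 2 and 3, or 61.5%, 26.9% and 33.6% of the control level. Its mean was -1.39 ± 0.19 (SE), with a 95% interval of -1.83 to -0.95. Among 19775 genes it was the 5th lowest difference and the 7th smallest p, with an unadjusted p of 4.26e-05 and an adjusted p of 0.105. With experiments 2 and 3 alone the difference was -1.73 ± 0.14 (adjusted p = 0.000431), a fit with 1 residual degree of freedom per gene. With the intensity trend and robust variances the adjusted p was 0.0062. Over 10 alternatives the adjusted p ranged from 0.000431 to 0.9999, the highest being without the block, and the difference from -1.73 to -1.14. The gene has 1 probe set, so no other reading of the transcript was available. In bulk RNA, a lower level in every cell and a larger loss in part of the cells cannot be told apart.

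NECAP2 had levels of 7.31, 6.82 and 6.55 in miR-224 cells, against 7.32, 7.05 and 7.03 in control cells. The groups overlap, and in experiment 1 the arms were nearly equal. Its difference was -0.24 ± 0.12 and missed the threshold (adjusted p = 0.513), with a 95% interval of -0.51 to 0.03. In experiments 2 and 3 alone it was -0.35. The NECAP1 difference was lower than that of NECAP2 by -0.69, -1.67 and -1.10 in experiments 1, 2 and 3, with a mean of -1.15 ± 0.49 (SD, n = 3). An exact sign-flip test gave p = 0.25 (two-sided), the smallest that 3 experiments allow.

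**Figure D2:**
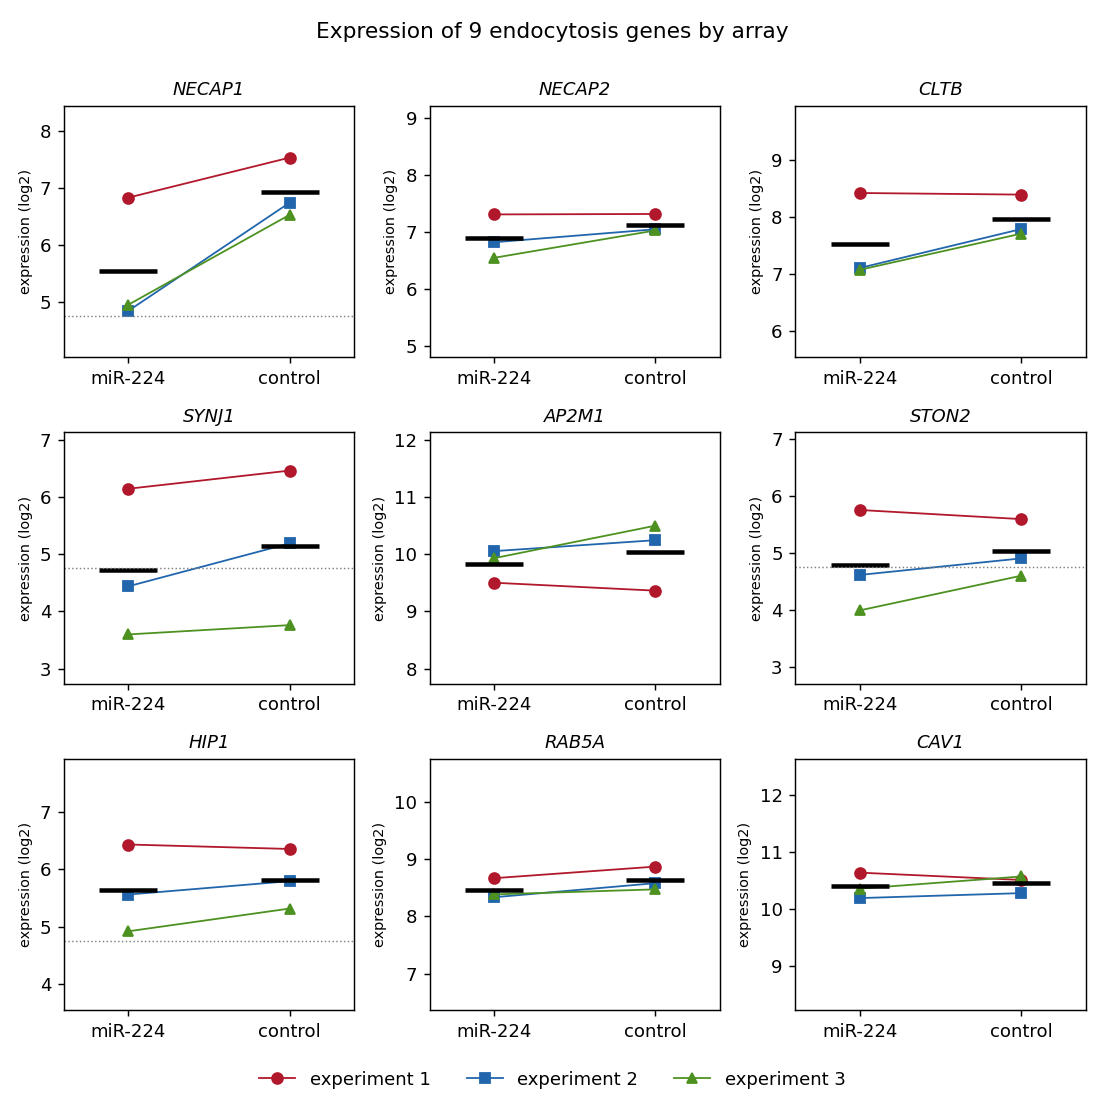
Each panel shows the expression level (log2) of 1 gene on the 6 arrays, with miR-224 cells left and control cells right. Lines join the arrays of an experiment, black bars are group means, and the dotted line is the median of all genes (4.75). Every panel spans the same range of log2 units, and within each experiment NECAP1 has the steepest line of the genes shown.

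Among the clathrin chains, the light chain CLTB was lower in experiments 2 and 3, while the other light chain CLTA and the heavy chain CLTC hardly differed. CLTB had levels of 8.42, 7.11 and 7.08 in miR-224 cells, against 8.39, 7.79 and 7.71 in control cells. In experiments 2 and 3 the miR-224 cells lay below both controls, whereas in experiment 1 the arms were alike. The differences were 0.03, -0.68 and -0.63 in experiments 1, 2 and 3.

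The mean for CLTB was -0.43 ± 0.15, with a 95% interval of -0.76 to -0.10 and an adjusted p of 0.343. With experiments 2 and 3 alone it was -0.66 ± 0.13 and stood just outside the threshold (adjusted p = 0.0516). CLTB has 2 other probe sets that were not dim, and both were likewise higher in experiment 1 and lower in experiments 2 and 3. They stood at 0.27, -0.68 and -0.69, and at 0.30, -0.65 and -0.83. These probe sets read the same RNA and are not replicates. CLTA stood at 0.02 ± 0.11 with an interval of -0.23 to 0.26, and CLTC at 0.02 ± 0.11 with an interval of -0.21 to 0.26.

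The subunits of AP-2, the adaptor of the plasma membrane, showed no difference past the test (0 of 5, of which 4 were lower). AP2M1, the μ2 subunit that reads tyrosine-based sorting signals, had levels of 9.50, 10.06 and 9.93 in miR-224 cells, against 9.36, 10.25 and 10.50 in control cells. The groups overlap, and the sign changed between experiments. Its difference was -0.21 ± 0.14 (adjusted p = 0.644), and -0.38 in experiments 2 and 3 alone.

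The large subunits differed little, with the α subunits AP2A1 and AP2A2 at -0.01 and -0.05 and the β2 subunit AP2B1 at -0.12. The small subunit AP2S1 stood at 0.10. AP2B1 was uneven between experiments, at 0.31, -0.60 and -0.07. AP-1, the adaptor of the trans-Golgi network and endosomes, likewise had 0 of 4 subunits past the test. Its members lay between -0.05 for the β1 subunit AP1B1 and 0.15 for the σ1 subunit AP1S1, with the γ subunit AP1G1 at 0.02 and the μ1 subunit AP1M1 at 0.0062.

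Of the proteins that start and scaffold the pit, 0 of 5 passed and 3 were lower. The membrane-bending initiator FCHO2 stood at -0.09, the scaffolds ITSN1 and ITSN2 at -0.13 and -0.10, and the EH-domain proteins EPS15 and EPS15L1 at 0.0034 and 0.10. ITSN1 was lower in every experiment, by amounts from -0.03 to -0.27. ITSN2 was as well, from -0.01 to -0.21. The 95% interval of both includes 0.

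Adaptors that link cargo, membrane lipids or actin to the coat had 6 of 7 members lower and 0 past the test. STON2, a stonin that sorts synaptotagmins, had levels of 5.75, 4.61 and 3.99 in miR-224 cells, against 5.59, 4.90 and 4.60 in control cells. Its groups overlap, and miR-224 cells of experiments 2 and 3 were dim. The difference was -0.25 ± 0.14 (adjusted p = 0.586), and -0.45 in experiments 2 and 3 alone. Its other probe sets were dim and gave 0.22, 0.07 and -0.09, and the mean of all its probe sets gave -0.0090.

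HIP1, which ties clathrin to actin, had levels of 6.44, 5.56 and 4.92 in miR-224 cells, against 6.36, 5.80 and 5.32 in control cells. The order of the experiments was the same in both arms and the groups overlap. Its difference was -0.18 ± 0.12 (adjusted p = 0.630), and -0.32 in experiments 2 and 3 alone. Its relative HIP1R stood at 0.13. The phosphoinositide-binding adaptor PICALM was at -0.13. Its other bright probe sets gave -0.26 and -0.04, and its dim ones -0.07 and -0.63. The epsin EPN1 was at -0.04. DAB2, an adaptor for receptors of the LDL receptor family, and NUMB, an adaptor known for Notch signalling, stood at -0.10 and -0.08, and these 2 genes were the dim ones of the set, with means of 4.59 and 2.14.

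On the probe set used for each, the genes of membrane bending and fission were all slightly higher on average (4 of 4), none past the test. The dynamin DNM2, the GTPase that cuts the vesicle neck, stood at 0.04, the amphiphysin family member BIN1 at 0.19, and the sorting nexins SNX9 and SNX18 at 0.15 and 0.05. SNX9 was higher in every experiment, at 0.28, 0.06 and 0.10, but its other bright probe set gave -0.12. For SNX18 the mean of all its probe sets gave -0.074. DNM2 was at 0.40 in experiment 1 and at -0.21 and -0.08 in experiments 2 and 3, so its mean is near 0 with opposite signs beneath it.

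Among the kinases and lipid phosphatases, SYNJ1 (synaptojanin 1), which removes phosphates from membrane phosphoinositides during uncoating, had the largest difference. Its levels were 6.15, 4.44 and 3.60 in miR-224 cells, against 6.47, 5.19 and 3.76 in control cells. Both arms followed the same order by experiment, over a range far wider than the difference between arms, and the groups overlap. SYNJ1 was lower in every experiment, at -0.32, -0.75 and -0.16. However, miR-224 cells of experiments 2 and 3 and control cells of experiment 3 were dim.

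The mean for SYNJ1 was -0.41 ± 0.13, with a 95% interval of -0.70 to -0.12 and an adjusted p of 0.312. Without experiment 1 it was -0.46 ± 0.16. Its other probe sets were dim and stood at -0.09 and -0.03, and the mean of all its probe sets gave -0.18. SYNJ2 stood at -0.15 with unlike values in the experiments (-0.15, 0.38 and -0.68). The kinases GAK and AAK1, which phosphorylate adaptor subunits, were at -0.14 and 0.03. GAK was lower in every experiment, though only by -0.0087 in experiment 1, and its other bright probe set gave -0.21.

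**Figure D3:**
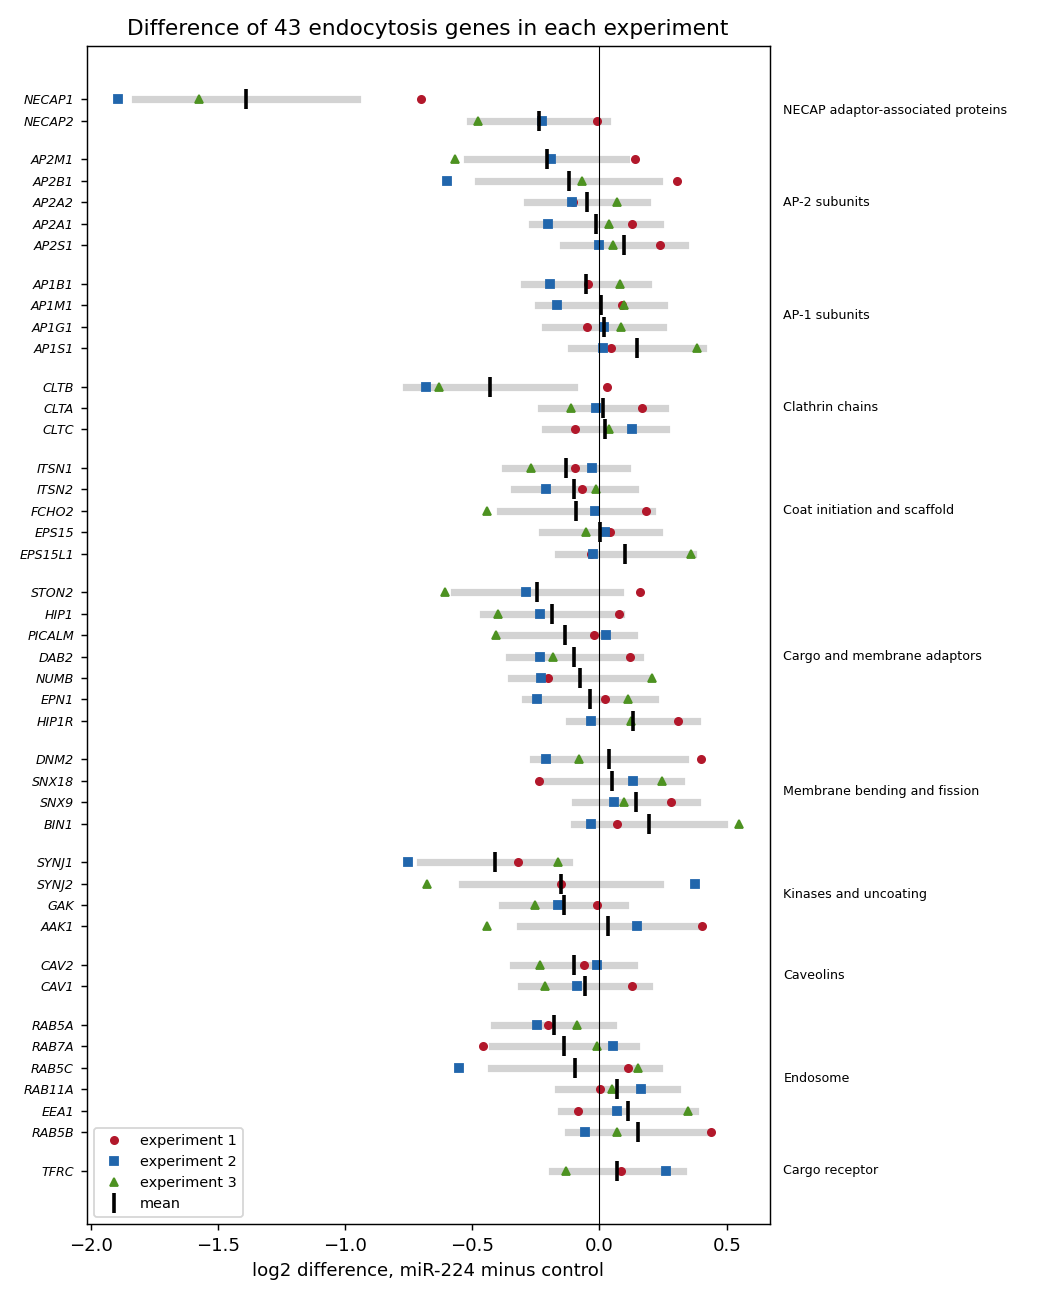
For each of the 43 genes, ordered by role, symbols give the log2 difference (miR-224 minus control) in experiments 1, 2 and 3, black ticks the mean and grey bars its 95% interval from the blocked limma fit. The intervals of 40 genes include 0, and those of NECAP1, CLTB and SYNJ1 lie below it.

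CAV1, the main structural protein of caveolae, had levels of 10.64, 10.20 and 10.36 in miR-224 cells, against 10.51, 10.28 and 10.58 in control cells. CAV2, its partner, had 9.88, 9.71 and 9.62 in miR-224 cells, against 9.94, 9.72 and 9.85 in control cells. Both pairs of groups overlap. CAV1 differed by -0.06 ± 0.11 with a 95% interval of -0.31 to 0.19 (adjusted p = 0.892), and CAV2 by -0.10 ± 0.11 with an interval of -0.34 to 0.14 (adjusted p = 0.788). Without experiment 1 the differences were -0.15 for CAV1 and -0.12 for CAV2. The other bright probe set of CAV1 gave -0.15 and that of CAV2 gave -0.16.

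Of the endosomal genes, 0 of 6 passed, with 3 lower and 3 higher. RAB5A, a GTPase of early endosomes, had levels of 8.67, 8.34 and 8.39 in miR-224 cells, against 8.87, 8.58 and 8.47 in control cells. It was lower in every experiment, by -0.20, -0.25 and -0.09, though the groups overlap. Its difference was -0.18 ± 0.10 (adjusted p = 0.580), and -0.17 without experiment 1, while another bright probe set gave 0.03. The paralogs RAB5B and RAB5C stood at 0.15 and -0.10, and RAB5C was at -0.55 in experiment 2 alone, a value that its other bright probe set also gave (-0.58).

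EEA1, the tether that RAB5 recruits, was at 0.11. RAB7A of late endosomes stood at -0.14, with -0.46 in experiment 1, and RAB11A of recycling endosomes at 0.07. TFRC, the transferrin receptor and a standard cargo of clathrin-coated pits, had levels of 11.33, 11.38 and 11.09 in miR-224 cells, against 11.24, 11.12 and 11.22 in control cells. The groups overlap. TFRC differed by 0.07 ± 0.11, with a 95% interval of -0.19 to 0.33 (adjusted p = 0.869), and by 0.06 without experiment 1.

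Direction was not uniform over the set. Of the 43 genes, 11 had the same sign in every experiment, 8 of them lower and 3 higher, beside 32.7% of all genes in either direction, 14.4% lower and 18.3% higher. The 8 were NECAP1, NECAP2, ITSN1, ITSN2, GAK, SYNJ1, CAV2 and RAB5A, and the 3 were AP1S1, SNX9 and RAB11A. Some of these signs rest on values near 0. In experiment 1, NECAP2 stood at -0.0076, GAK at -0.0087 and RAB11A at 6e-04, and in experiment 2 CAV2 stood at -0.0094. In no endocytosis gene did the groups stand apart over all 6 arrays, as they did in 6.27% of all genes. The median difference over the 43 genes was 0.03, -0.06 and -0.05 in experiments 1, 2 and 3, beside 0.02, 0.00081 and 0.01 over all genes.

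In control cells, the gap between experiment 1 and the mean of experiments 2 and 3 was larger than the miR-224 difference for 39 of 43 genes (90.7%). This held for 80.6% of the 72 other endocytosis genes described below and for 74.8% of all genes, which include more dim ones. The gap rests on single control arrays and the difference on the mean of 3 pairs, so the measures are unlike in noise. The exceptions were NECAP1, PICALM, RAB11A and TFRC. SYNJ1 was higher in experiment 1 by 1.99, EEA1 by 1.25 and SNX18 by 1.22, whereas DNM2, AP2B1 and AP2M1 stood at -1.48, -1.47 and -1.01. These gaps go with the low 5′ signal of experiment 1, whose part in them was not tested.

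**Figure D4:**
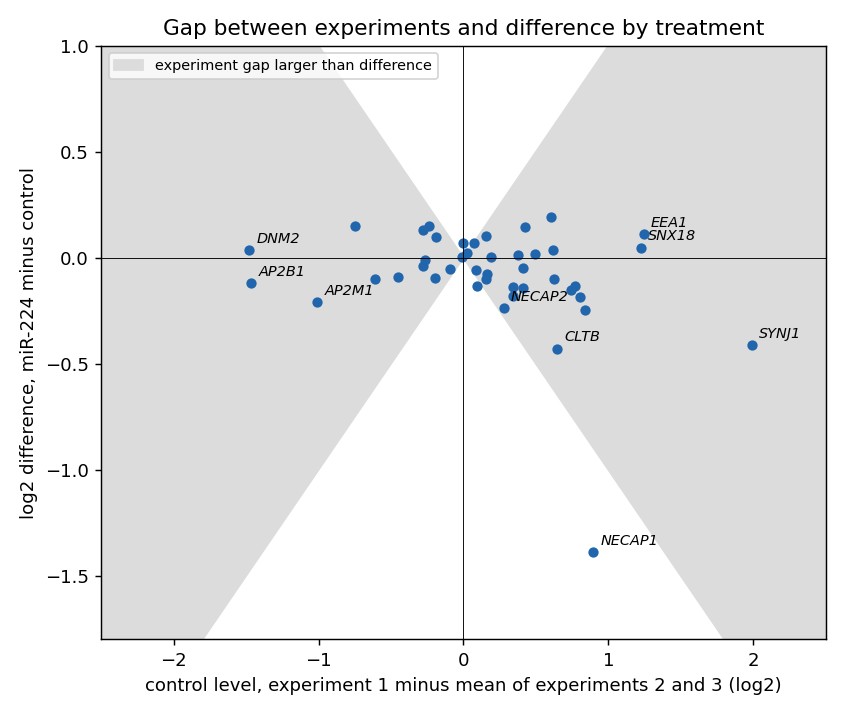
Each point is 1 of the 43 genes. The horizontal axis gives the control level of experiment 1 minus the mean control level of experiments 2 and 3, and the vertical axis the mean difference, miR-224 minus control (both log2). In the grey area the gap exceeds the difference, as it does for 39 genes, and NECAP1 lies outside it at a gap of 0.90 and a difference of -1.39.

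The 43 genes were read by 147 probe sets in all, with 5 genes having a single one. Among the other 104 probe sets 45 were not dim, and 16 of these 45 had a sign opposite to that of the one used. Genes whose bright probe sets agreed in sign included CLTB, BIN1, CAV1, CAV2, GAK, ITSN1 and AP2S1. BIN1 gave 0.19 on the probe set used and 0.15, 0.31, 0.28 and 0.05 on the others. AP2B1 gave -0.12 and 0.06, and SNX9 gave 0.15 and -0.12, so that neither has a settled direction. RAB11A gave 0.07 on the probe set used and -0.04 and -0.32 on its others. The other probe set of EPS15 was dim and gave -0.41.

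Outside the 43 genes, 72 of 75 other genes of adaptors, endosomal sorting and endocytic receptors were measured. None passed the test over all 6 arrays, their median difference was -0.0019, and 37 were lower. At an unadjusted p under 0.05 there were 9, all lower, or 12.5%, beside 5.52% of all genes that were lower and 11% in either direction. Of the 72 genes 66 were at or above the median level. In the fit of such genes alone, 1227 of 9888 had an unadjusted limma p under 0.05 in either direction. The lowest with a constant sign were SH3KBP1, an adaptor in receptor downregulation (-0.60 ± 0.15), PIK3C2A, a lipid kinase of coated pits (-0.48 ± 0.12), and IGF2R, the receptor that carries lysosomal enzymes (-0.43 ± 0.14). Their adjusted p was 0.241, 0.241 and 0.322. The highest were AP3B1, a subunit of AP-3 (0.19 ± 0.12), RAB22A, an endosomal GTPase (0.18 ± 0.11), and the epsin EPN3 (0.18 ± 0.11). In experiments 2 and 3 alone SH3KBP1 was the 1 gene of the 72 that passed, at -0.83 ± 0.14 (adjusted p = 0.0253), where 0.88% of all genes passed and 0.743% were lower.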

How the data were processed

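The file used holds the authors' deposited values of 6 Affymetrix arrays (54675 probe sets). RMA and Partek are named in the submitters' processing notes, with versions and settings not given in the sources used here. The deposited values were read as log2 because they lie between 1.47 and 13.6, although the base is not stated. RMA makes the distributions of the arrays alike, so differences are relative to the bulk of genes.

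The array annotation gave 41091 probe sets 1 gene symbol and 1801 several. A further 11721 had none, and 62 control probe sets stayed out of the fits. A match of gene identifiers to RefSeq changed 0 symbols. The test was that of limma 3.58.1, run in R 4.3.3 (lmFit, eBayes, two-sided, Benjamini-Hochberg over 19775 genes, threshold 0.05). Experiment was a block, since the series states pairs from 3 independent experiments and titles number them, which leaves 2 residual degrees of freedom. Deviations from group means correlated at 0.855, 0.585 and 0.771 for equal numbers and at -0.753 to 0.257 for unequal ones. Deviations cancel within each group, so a positive value for equal numbers forces a negative one among unequal numbers. The contrast is therefore in part built in. Between experiments 2 and 3 the correlations were 0.257 and 0.172, and those with experiment 1 were all negative. The fits were tested on simulated data. Alternatives were no block, each experiment left out, mean probe sets, brighter genes only, other normalizations, another variance model and array weights. Plots were made in Python 3.11.15 with matplotlib 3.10.9.

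Every array value is given for NECAP1 and NECAP2, for members differing by at least 0.4 or called in either fit, for the 8 with the smallest p, and for CAV1, CAV2 and TFRC. Of the other endocytosis genes, the 3 lowest and 3 highest with a constant sign and a level at or above the median are named. The members, lists and tests were chosen with earlier results of these data known.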

Additional observations from a re-analysis of the deposited data

How the results depend on the processing

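Without replicate block the fit called 0 genes and 0 endocytosis genes, with 313 of all genes at an unadjusted p under 0.05, and the block changed no call. NECAP1 stood at an unadjusted p of 0.0502 there. Leaving out 1 experiment at a time gave 0 to 174 genes and 0 to 1 endocytosis genes (NECAP1, without experiment 1), and a median member difference of -0.083 to -0.018. The intensity trend with robust variances gave 56 genes and 1 endocytosis gene, and array weights 4 and 0. The mean of probe sets, the restriction to brighter genes, renewed quantile normalization and median centring gave 0 genes each, with lowest adjusted p from 0.0571 to 0.183.

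The sign was kept by 18 of 43 genes under every alternative run on them, which were 10, or 9 for DAB2 as a dim gene. Among them were NECAP1, NECAP2, CLTB, SYNJ1, STON2, HIP1, AP2M1, CAV2 and RAB5A. The other 25 changed sign at least in 1 of them, from differences of at most 0.15. Averaging all probe sets of each gene gave 0.039 for AP2A1, 0.022 for AP2A2, -0.023 for CLTC, 0.056 for FCHO2 and -0.21 for EPS15. They were 0.055 for ITSN2, 0.0054 for EPN1, -0.074 for SNX18, -0.054 for AAK1 and -0.094 for RAB11A. AP2A1 was 0.027 after quantile normalization, AP1M1 was -0.0079 and EPS15 -0.011 with median centring, and AP1M1 was -0.021 with array weights. With single experiments left out, which leaves fewer samples, the range was -0.083 to 0.083 for AP2A1, -0.33 to 0.12 for AP2B1, -0.12 to 0.018 for AP1B1, -0.015 to 0.051 for AP1G1, -0.040 to 0.093 for AP1M1 and -0.061 to 0.079 for CLTA. It was -0.028 to 0.083 for CLTC, -0.23 to 0.083 for FCHO2, -0.017 to 0.032 for EPS15, -0.029 to 0.17 for EPS15L1, -0.21 to 0.0024 for PICALM and -0.11 to 0.067 for EPN1. It was -0.22 to 0.0023 for NUMB, -0.14 to 0.16 for DNM2, -0.052 to 0.19 for SNX18, -0.15 to 0.27 for AAK1, -0.41 to 0.11 for SYNJ2 and -0.15 to 0.021 for CAV1. It was -0.22 to 0.13 for RAB5C, -0.0073 to 0.21 for EEA1, -0.23 to 0.021 for RAB7A and -0.025 to 0.17 for TFRC. The causes were not tested.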

Other observations

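SH3KBP1 and CD2AP, which encode related adaptors that bind CBL and endophilins, were both lower in every experiment. SH3KBP1 had levels of 8.30, 7.50 and 7.95 in miR-224 cells, against 8.44, 8.18 and 8.92 in control cells. Its differences were -0.14, -0.68 and -0.97 in experiments 1, 2 and 3, and its other probe sets, both brighter than the median of all genes, gave -0.82 and -0.43. CD2AP had levels of 8.15, 7.64 and 6.86 in miR-224 cells, against 8.32, 7.91 and 7.54 in control cells. Its difference was -0.37 ± 0.12 (limma adjusted p = 0.337), and a dim probe set gave 0.19. The groups overlap for both genes.

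The clathrin adaptors of the trans-Golgi network GGA1 and GGA3 were lower by similar amounts, at -0.35 ± 0.13 and -0.31 ± 0.10 (limma adjusted p = 0.367 and 0.331), and each was lower in every experiment. The third family member, GGA2, stood at -0.11 ± 0.11 (limma adjusted p = 0.758), with 0.02 in experiment 1. GGA1, GGA2 and GGA3 have 5, 8 and 2 probe sets, and each value rests on the brightest alone. GGA3 had levels of 5.32, 6.74 and 6.96 in miR-224 cells, against 5.61, 7.13 and 7.22 in control cells, so experiment 1 lay far below the others in both arms. Among the 72 other endocytosis genes, IGF2R and SH3GL1 were the 2 whose groups did not overlap, beside 6.27% of all genes. IGF2R had levels of 6.44, 6.24 and 6.33 in miR-224 cells, against 6.57, 6.57 and 7.16 in control cells. The genes given here and in the previous paragraph were chosen with their values in view.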
